A study of Mus musculus with 29 samples.

Results

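Cadherins are calcium-dependent adhesion proteins that join neighbouring cells, and 10 genes of the family were followed here: Cdh1, Cdh2, Cdh3, Cdh4, Cdh6, Cdh8, Cdh10, Cdh11, Cdh13 and Cdh20. They were taken by gene symbol, with 1 transcript cluster per gene, from 30142 genes that had a cluster annotated with a single symbol. The choice was made with earlier results of these data known. All 10 were found, and all 10 were among the 22063 genes tested. A gene was tested where it exceeded the array's median level in at least 2 arrays. Cdh1, Cdh3 and Cdh8 did so in 21, 22 and 24 of the 29 arrays and the other 7 members in all 29.

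RNA of mouse cells was hybridised to 29 Clariom D arrays, from embryonic stem cells through 3 later stages of a neural differentiation protocol. The cells came from a line labelled BERKO, the name used for knockouts of estrogen receptor beta (gene Esr2), and from a wild-type line (WT). The mESC stage is embryonic stem cells kept with LIF (2 BERKO and 2 WT arrays, untreated). The NPC stage is cells expanded after neural induction with FGFb and laminin, and the stage labelled mDPC is cells then kept with FGFb, FGF8b, Shh and ascorbic acid. NPC and mDPC each held 2 arrays of BERKO with LY3201, 2 of untreated BERKO, 2 of WT with LY3201 and 2 of untreated WT. LY3201 is an agonist selective for estrogen receptor beta. It was given at 0.5 nM for 4 days at these stages, with the solvent DMSO as the vehicle. Cells of the stage labelled MN were kept with N2 and ascorbic acid. This stage held 2 arrays of BERKO with LY3201, 3 of untreated BERKO, 2 of WT with LY3201 and 2 of untreated WT, and its length of treatment is not given. The labels name 1 line per genotype and do not give the number of clones, so genotype and line cannot be told apart. Within mESC BERKO both titles carry 1 common number, and the same holds within NPC WT+LY3201, so either group could be 1 biological replicate. Nothing says that the other replicates came from separate cultures, and p-values then measure only the spread between arrays.

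Levels are the deposited log2 values, and each array's negative-control probes give a background for them. The 95th percentile of these controls lay between 6.63 and 7.66, and a level under its own array's percentile is called below background here. Esr2 went against the label, since its BERKO levels (3.80 to 4.46, 15 arrays) all exceeded its WT levels (3.21 to 3.47, 14 arrays), and every one was below background. The labels do not give the deleted part of Esr2, so this probe may check nothing, and "BERKO" below always means the arrays with that label. Pluripotency markers were above background for 7 of 7 genes in the 4 mESC arrays and for at most 1 of 7 later. Of 7 neural precursor markers, 4 to 6 were above background at NPC, mDPC and MN. At MN, 4 to 6 of 7 neuron markers (4 in every BERKO array) and 5 to 6 of 7 astrocyte markers were above background. Neuron markers already were for 2 of 7 genes at mESC, 3 to 4 at NPC and 3 at mDPC. Astrocyte markers were for 5 to 6 of 7 at mDPC. Smooth muscle markers were above background for 1 to 3 of 5 genes at MN and for 0 at earlier stages. None of 8 dopaminergic midbrain markers exceeded background in any array, Th and Nr4a2 among them.

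Cadherins bind the same or a related cadherin on the next cell through their extracellular repeats, while their cytoplasmic tail holds beta-catenin and p120-catenin and through these the actin cytoskeleton. Type I members are Cdh1 (E-cadherin, of epithelia and pluripotent cells), Cdh2 (N-cadherin, of neural and mesenchymal cells), Cdh3 (P-cadherin) and Cdh4 (R-cadherin, of retina and brain). Type II members are Cdh6, Cdh8, Cdh10, Cdh11 and Cdh20, which mark regions and cell groups of the developing nervous system. Cdh13 (T-cadherin) is held in the membrane by a lipid anchor and lacks the cytoplasmic tail, so it is not a classical cadherin in the strict sense. During neural induction the epithelial Cdh1 is known to give way to Cdh2, an exchange called the cadherin switch.

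**Figure D1:**
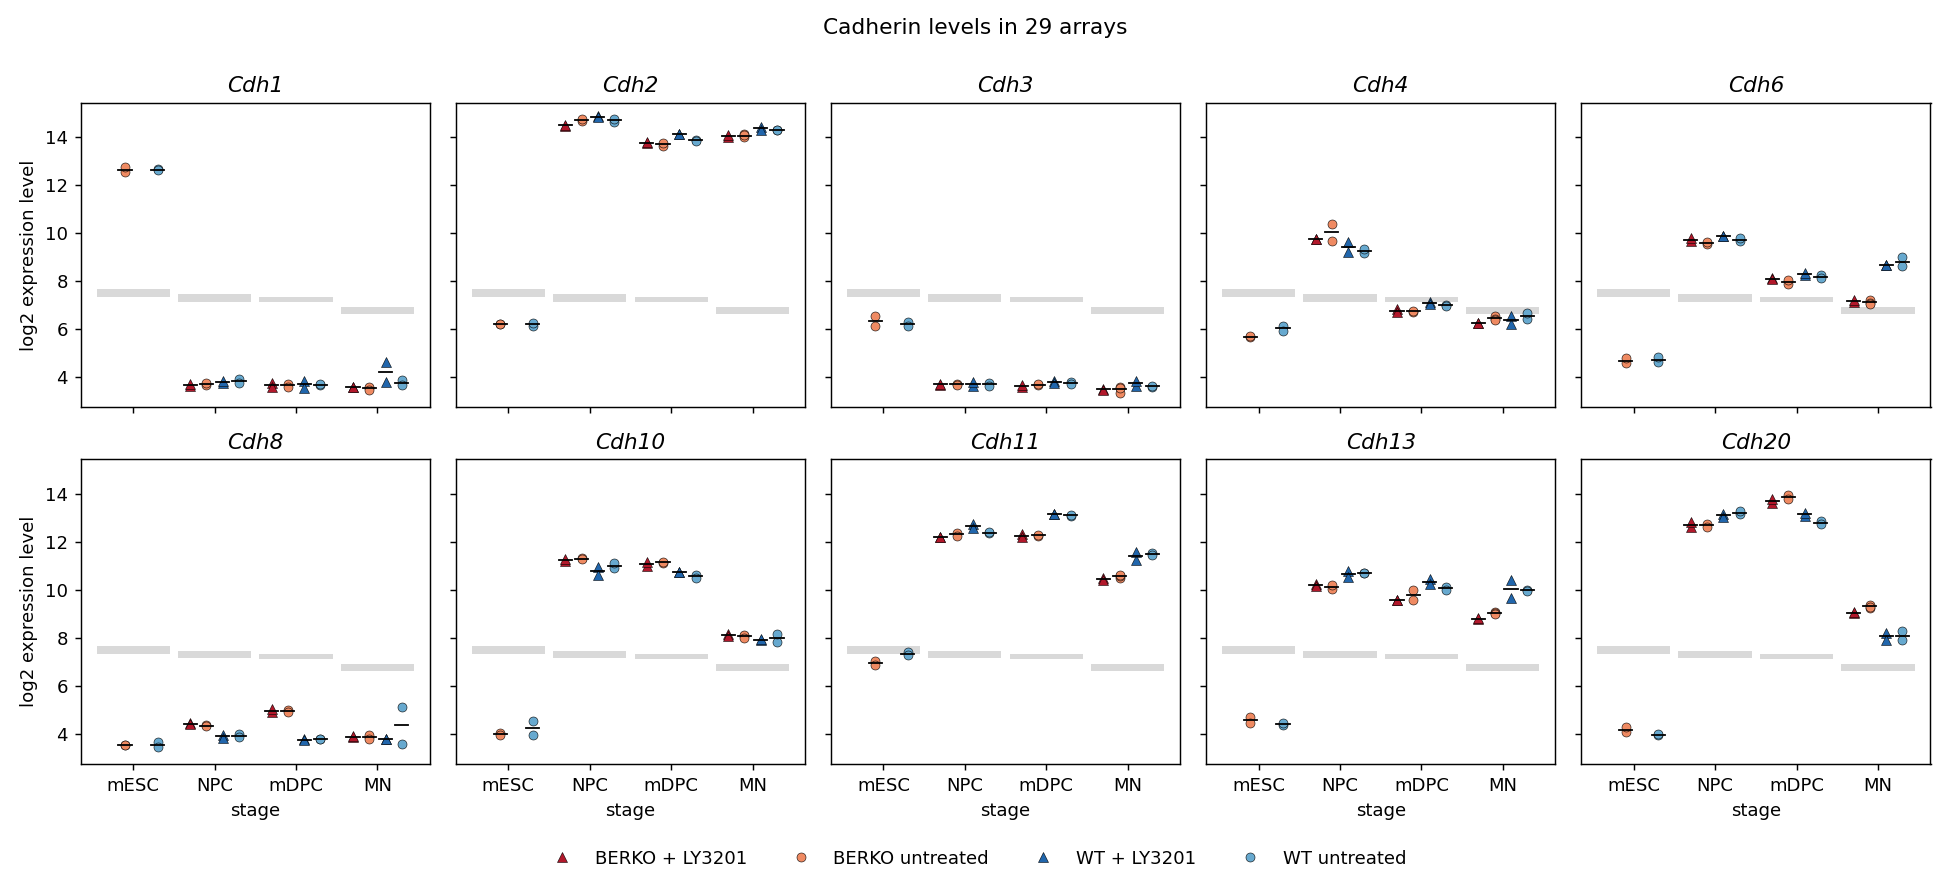
Log2 level of each member in each of the 29 arrays, by stage, with the mean of each group as a short line. Grey bands give the range of the negative controls' 95th percentile at each stage: Cdh1 lies above its band at mESC, Cdh4 at NPC, and Cdh3 and Cdh8 at no stage.

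Over the stages the members fell into 4 patterns of detection. Cdh1 was above background in the 4 mESC arrays and in 0 of the 25 later arrays. Cdh2, Cdh6, Cdh10, Cdh11, Cdh13 and Cdh20 were above background in all 25 later arrays and in 0 of the 4 mESC arrays. Cdh4 was above background in the 8 NPC arrays alone, where it lay between 9.17 and 10.4. Cdh3 and Cdh8 were below background in all 29 arrays, so differences between their levels are differences under the background set by the negative controls.

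Cdh1, the E-cadherin gene, had 12.57 and 12.75 in the mESC BERKO arrays, against 12.63 and 12.67 in the mESC WT arrays. At NPC it lay between 3.63 and 3.76 in the 4 BERKO arrays and between 3.76 and 3.91 in the 4 WT arrays. The mESC arrays stood far above every later array, in which the highest Cdh1 level was 4.63. In these bulk samples fewer cells of a type and less RNA per cell cannot be told apart. From mESC to NPC Cdh1 fell by 8.94 ± 0.17 in BERKO (SE, n = 2 each, limma adjusted p = 1.56e-19) and by 8.81 ± 0.17 in WT (adjusted p = 2.05e-19). Since NPC levels were below background, the measured ratio is a bound: Cdh1 was at least 40-fold lower in BERKO NPC and at least 36.6-fold lower in WT NPC. Each bound sets the mESC mean against NPC levels raised to the negative controls' 95th percentile, and the same was done for the other bounds.

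Cdh2, the N-cadherin gene, ran the other way. It had 14.68 and 14.78 in untreated BERKO NPC, against 6.23 and 6.23 in BERKO mESC, and 14.66 and 14.77 in untreated WT NPC, against 6.13 and 6.28 in WT mESC. No NPC array came near an mESC array. The change was 8.50 ± 0.07 in BERKO (adjusted p = 5.67e-24) and 8.52 ± 0.07 in WT (adjusted p = 6.98e-24), at least 150-fold and at least 148-fold. The difference between the genotypes' steps was -0.01 with a 95% interval of -0.24 to 0.21.

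Cdh3, the P-cadherin gene and the neighbour of Cdh1 among protein-coding genes of the RefSeq annotation, moved as Cdh1 did but below background. It lay between 6.13 and 6.55 in the 4 mESC arrays and between 3.33 and 3.85 in all later arrays. The step to NPC was -2.64 ± 0.12 in BERKO (adjusted p = 9.74e-14) and -2.51 ± 0.12 in WT (adjusted p = 2.09e-13). With levels raised to the background percentile the step was -0.16 in BERKO and -0.05 in WT and no longer passed the test (adjusted p = 0.0764 and 0.594).

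From mESC to NPC, 8 of the 10 members rose in BERKO and 7 in WT, and 2 fell in each. Among all genes tested, 27.7% rose and 35.9% fell in BERKO, and 27.9% rose and 35% fell in WT. The members' median step was 5.13 in BERKO and 5.02 in WT, against -0.10 and -0.04 over all genes tested. Cdh8, a type II cadherin, was the member that differed between these counts. It rose by 0.80 ± 0.26 in BERKO (adjusted p = 0.0121), below background throughout, and its step in WT was 0.38 ± 0.26 (adjusted p = 0.228). The BERKO call was lost without NPC BERKO array 1 (adjusted p = 0.052) and when arrays of the same number were averaged (adjusted p = 0.054). With the 2 compared groups fitted alone the WT step passed the test (adjusted p = 0.0205). The difference between the genotypes' steps for Cdh8 was 0.42 (adjusted p = 0.576).

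**Figure D2:**
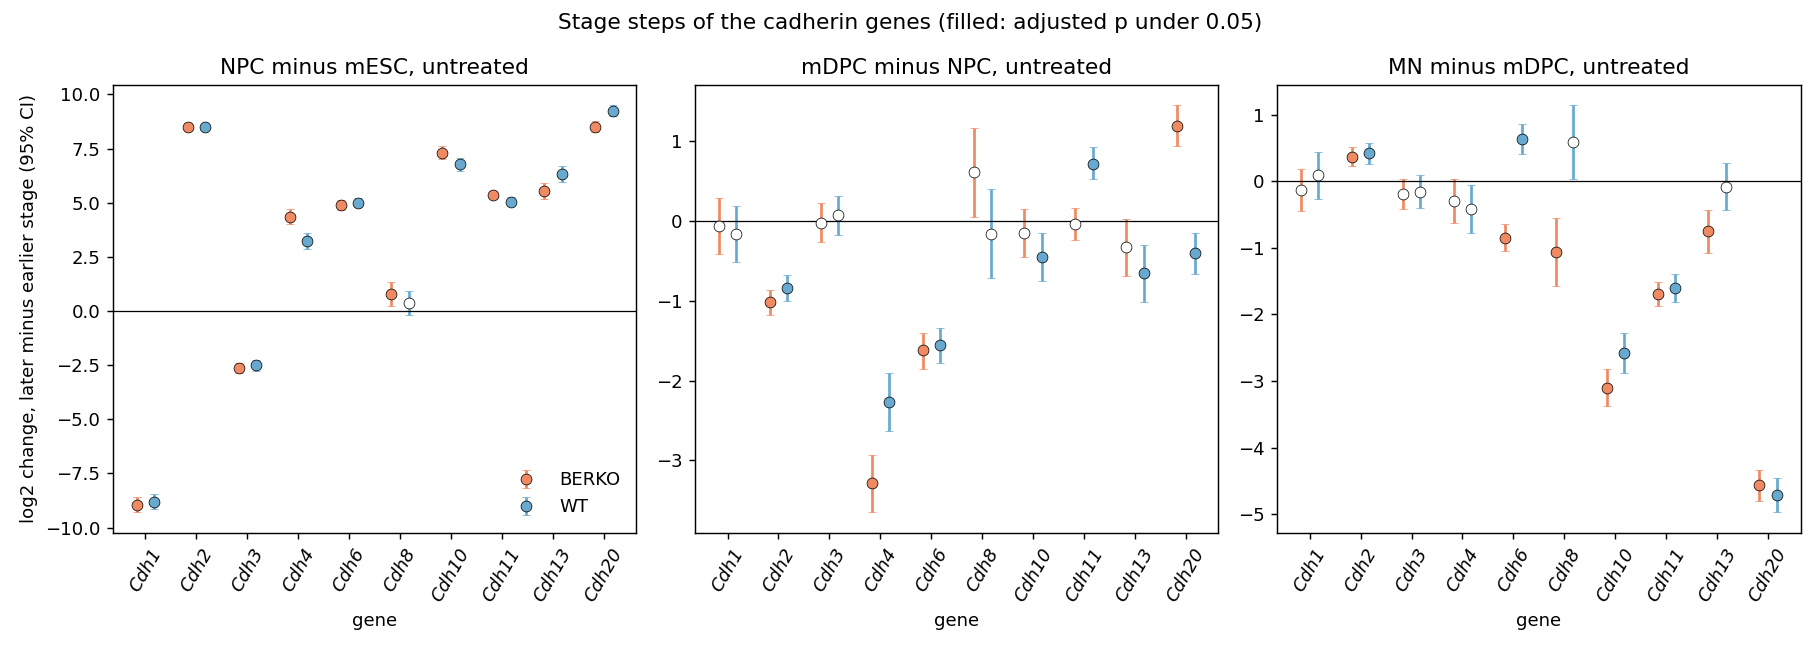
Log2 change of each member from 1 stage to the next in untreated BERKO and WT arrays, with 95% intervals from limma and a separate vertical scale per step. Filled points passed the test; Cdh1 and Cdh3 fell and Cdh2 rose at the step to NPC in both genotypes, and Cdh6 moved in opposite directions at the step to MN.

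The type II members other than Cdh8, and Cdh13, rose at the step to NPC in both genotypes. Cdh20 had 12.65 and 12.75 in BERKO NPC, against 4.09 and 4.30 in BERKO mESC, and 13.16 and 13.29 in WT NPC, against 3.98 and 3.99 in WT mESC. Its change was 8.51 ± 0.12 in BERKO and 9.24 ± 0.12 in WT, at least 36.7-fold and at least 52.6-fold. Cdh10 changed by 7.31 ± 0.14 in BERKO and 6.78 ± 0.14 in WT, at least 14.1-fold and at least 11.5-fold. Cdh13 changed by 5.55 ± 0.17 and 6.32 ± 0.17 in the same order, Cdh11 by 5.36 ± 0.10 and 5.04 ± 0.10, and Cdh6 by 4.91 ± 0.11 and 5.01 ± 0.11. Each of these steps passed the test in both genotypes, and no mESC array overlapped an NPC array. Cdh11 was the member nearest to background in mESC, at 6.88 and 7.05 in BERKO and 7.29 and 7.42 in WT.

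Cdh4, the R-cadherin gene, was the member whose signal peaked at NPC and left again. It had 9.70 and 10.40 in untreated BERKO NPC, against 5.66 and 5.72 in BERKO mESC. In untreated WT NPC it had 9.17 and 9.36, against 5.93 and 6.14 in WT mESC. At mDPC it was back below background, at 6.73 and 6.78 in untreated BERKO and at 6.98 and 7.01 in untreated WT. The step to NPC was 4.36 ± 0.17 in BERKO and 3.23 ± 0.17 in WT, at least 5.83-fold and at least 3.38-fold. The step from NPC to mDPC was -3.29 ± 0.17 in BERKO (adjusted p = 1.15e-11) and -2.27 ± 0.17 in WT (adjusted p = 4.49e-09), at least 7.33-fold and at least 3.98-fold lower. At MN its levels were 6.39 to 6.56 in untreated BERKO and 6.45 and 6.70 in untreated WT.

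From NPC to mDPC, 1 member rose and 3 fell in BERKO, while 1 rose and 6 fell in WT. Among all genes tested, 16.5% rose and 18.9% fell in BERKO, and 14.6% rose and 15.8% fell in WT. Cdh2, Cdh4 and Cdh6 fell in both genotypes. Cdh2 fell by 1.02 ± 0.07 in BERKO and by 0.84 ± 0.07 in WT, and Cdh6 changed by -1.62 ± 0.11 in BERKO and by -1.56 ± 0.11 in WT. Cdh10, Cdh13 and Cdh20 fell in WT by 0.45, 0.65 and 0.40 (adjusted p = 0.0212, 0.00596 and 0.0168). These 3 calls were each lost when mDPC WT array 2 was left out (adjusted p = 0.119, 0.0523 and 0.129). Without NPC WT array 2 the calls of Cdh10 and Cdh20 were lost (adjusted p = 0.187 and 0.136), and without mDPC WT array 1 that of Cdh10 (adjusted p = 0.0529). The Cdh20 call was also lost after quantile normalization (adjusted p = 0.0645).

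Cdh20 and Cdh11 took different courses in the genotypes at this step. Cdh20 had 13.81 and 13.97 in untreated BERKO mDPC, against 12.65 and 12.75 in BERKO NPC, a rise of 1.19 ± 0.12 (adjusted p = 1.99e-07). In WT it had 12.76 and 12.89 at mDPC, against 13.16 and 13.29 at NPC. The difference between the steps, BERKO minus WT, was 1.59 with a 95% interval of 1.23 to 1.96 (adjusted p = 5.57e-06). Cdh11, which is known from bone and mesenchyme as well as from brain, had 13.11 and 13.13 in untreated WT mDPC, against 12.38 and 12.42 in WT NPC, a rise of 0.72 ± 0.10 (adjusted p = 8.99e-06). In BERKO it had 12.27 and 12.30 at mDPC, against 12.26 and 12.40 at NPC, so these arrays overlapped. The difference between the steps was -0.76, with an interval of -1.05 to -0.48 (adjusted p = 0.00111). For Cdh4 it was -1.02 (adjusted p = 0.0103), and it missed the threshold without NPC WT array 1 (-0.93, adjusted p = 0.0578) or without NPC BERKO array 2 (-0.67, adjusted p = 0.0649), and when the 4 groups were fitted alone (adjusted p = 0.08). These 3 members were called, where 8.68% of all genes tested were.

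From mDPC to MN, 1 member rose and 6 fell in BERKO, while 2 rose and 3 fell in WT. Among all genes tested, 20.1% rose and 30.8% fell in BERKO, and 18% rose and 24% fell in WT. The median of all genes tested moved by -0.14 at this step in BERKO and by -0.10 in WT. Cdh20 fell by 4.56 ± 0.11 in BERKO (n = 3 against 2) and by 4.71 ± 0.12 in WT, which is 23.7-fold and 26.2-fold. It had 9.28, 9.30 and 9.40 in untreated BERKO MN, against 13.81 and 13.97 in BERKO mDPC. In WT it had 7.92 and 8.30 at MN, against 12.76 and 12.89 at mDPC. Cdh10 changed by -3.10 ± 0.13 in BERKO and by -2.58 ± 0.14 in WT, 8.57-fold and 5.97-fold lower. Cdh11 changed by -1.69 ± 0.09 in BERKO and by -1.60 ± 0.10 in WT. Cdh13 fell by 0.75 in BERKO (adjusted p = 0.000474), and its WT step was -0.08 (adjusted p = 0.758). Cdh2 rose by 0.37 ± 0.07 in BERKO (adjusted p = 0.000141) and by 0.42 ± 0.07 in WT (adjusted p = 0.000121), so that its MN level lay between those of NPC and mDPC in both genotypes.

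Cdh6, a type II cadherin of kidney and brain, moved in opposite directions. It had 7.05, 7.10 and 7.23 in untreated BERKO MN, against 7.90 and 8.05 in BERKO mDPC, a fall of 0.85 ± 0.10 (adjusted p = 5.16e-07). In WT it had 8.65 and 8.99 at MN, against 8.12 and 8.24 at mDPC, a rise of 0.64 ± 0.11 (adjusted p = 6.73e-05). The difference between the steps was -1.48, with an interval of -1.79 to -1.18 (adjusted p = 8.16e-07). Cdh8 also differed between the steps, by -1.66 with an interval of -2.41 to -0.91 (adjusted p = 0.00353), below background. Its WT side rested on MN WT array 2, at 5.13 against 3.6 in MN WT array 1. Without array 2 the difference was -0.90 (adjusted p = 8.69e-05), and without array 1 it was -2.42. With the 4 groups fitted alone it missed the threshold (adjusted p = 0.104), as it did with levels raised to background (-0.06, adjusted p = 0.682). The 7 neuron markers summed to 70.43 in MN WT array 2 and to 57.56 in array 1, and their part in the Cdh8 value was not tested. These 2 members were called, where 12.5% of all genes tested were. At the step to NPC, the steps differed for Cdh4 (1.13, adjusted p = 0.00478) and Cdh20 (-0.74, adjusted p = 0.00928), 2 members where 9.6% of all genes were called. In both, the mESC side was below background. Cdh4 missed the threshold with the 4 groups fitted alone (adjusted p = 0.0678) and Cdh20 with levels raised to background (-0.52, adjusted p = 0.093).

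Cdh10 and Cdh20 followed each other most closely among the type II members: over the 14 group means their levels had a Pearson r of 0.987, as a description of groups that share stages. Between genotypes at NPC they went opposite ways: every BERKO array lay above every WT array for Cdh10, and below for Cdh20. Of all genes tested, 11.6% had every BERKO array above and 9.77% had every one below. The Cdh10 difference passed limma's test only with LY3201 and the Cdh20 difference only without it. These calls were lost under 7 and 2 of 12 alternatives. Cdh6 lies beside Cdh9, and Cdh9 beside Cdh10, in RefSeq's order of protein-coding genes, and Cdh6 rose in WT MN where Cdh10 fell. The promoter windows of Cdh6, Cdh10 and Cdh20 are shown to compare their sequence, in RefSeq annotation of GRCm38.p6. Each runs from 250 bases before to 50 bases after an annotated start. The Cdh6 and Cdh10 windows lay inside the genes' RefSeq spans (13028699 to 13176407 and 18818869 to 19016206), not at their outermost start. Capitals mark each CANNTG, the E-box core bound by helix-loop-helix and zinc-finger factors.
Cdh6 (chr15:13173626-13173925, - strand): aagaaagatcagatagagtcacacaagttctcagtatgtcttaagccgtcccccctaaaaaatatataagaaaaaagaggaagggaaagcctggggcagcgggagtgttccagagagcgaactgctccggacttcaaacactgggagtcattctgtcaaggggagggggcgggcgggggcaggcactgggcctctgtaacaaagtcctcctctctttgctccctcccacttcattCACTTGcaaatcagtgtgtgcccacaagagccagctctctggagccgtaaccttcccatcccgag
Cdh10 (chr15:18820079-18820378, + strand): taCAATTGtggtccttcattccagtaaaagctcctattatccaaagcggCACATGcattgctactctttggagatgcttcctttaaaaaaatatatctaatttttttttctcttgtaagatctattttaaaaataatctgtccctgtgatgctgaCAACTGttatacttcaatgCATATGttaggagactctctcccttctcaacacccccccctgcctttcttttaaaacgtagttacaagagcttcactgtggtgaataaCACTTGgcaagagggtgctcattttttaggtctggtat
Cdh20 (chr1:104768270-104768569, + strand): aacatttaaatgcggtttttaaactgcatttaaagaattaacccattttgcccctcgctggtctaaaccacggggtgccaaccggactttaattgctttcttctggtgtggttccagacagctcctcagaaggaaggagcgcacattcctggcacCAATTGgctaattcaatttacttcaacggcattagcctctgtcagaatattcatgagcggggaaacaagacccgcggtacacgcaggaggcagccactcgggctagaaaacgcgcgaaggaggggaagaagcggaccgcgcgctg

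Of the 10 members, 4 had a window in the table, Cdh8 being the other. The Cdh8 window also lay inside its gene's span. The E-box core CANNTG, which reads the same on both strands, occurred 5 times in the Cdh10 window, 2 times in that of Cdh8, and 1 time each in those of Cdh6 and Cdh20. Some 72.3% of the 32851 windows in the table hold it. CAGGTG or its complement CACCTG, a form of CANNTG that the repressors Zeb1 and Snai1 are known to bind, was in 0 of the 4 windows, and 20.2% of all windows hold it. GGTCA or its complement TGACC, the arm of the estrogen response element, was also in 0 of the 4, and 40.5% of all windows hold it. GC content was 37.7% in the Cdh10 window, 50.7% in that of Cdh20, 53% in that of Cdh6 and 62.3% in that of Cdh8. The windows held 2, 18, 8 and 21 CG dinucleotides in the same order of genes, against a median of 7 over all windows. The Cdh10 and Cdh20 windows were unlike in base composition. The part of the sequence in the levels of these genes was not tested, and matches and their lack describe these letters only.

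Between genotypes, the untreated mESC arrays differed in 0 members upward and 1 downward, where 1.68% of all genes were higher and 2.53% lower in BERKO. The 1 member was Cdh11, at 6.88 and 7.05 in BERKO and 7.29 and 7.42 in WT, a difference of -0.39 (adjusted p = 0.0281), with all 4 levels below background. It was lost without mESC WT array 1 (adjusted p = 0.227), without WT array 2 (0.0676) and without BERKO array 2 (0.157), and under 5 of the other alternatives (0.0634 to 0.993), averaging of the same-number BERKO arrays among them (0.126). Cdh1 differed by 0.01 with an interval of -0.34 to 0.36, and Cdh2 by 0.02 with an interval of -0.13 to 0.18.

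**Figure D3:**
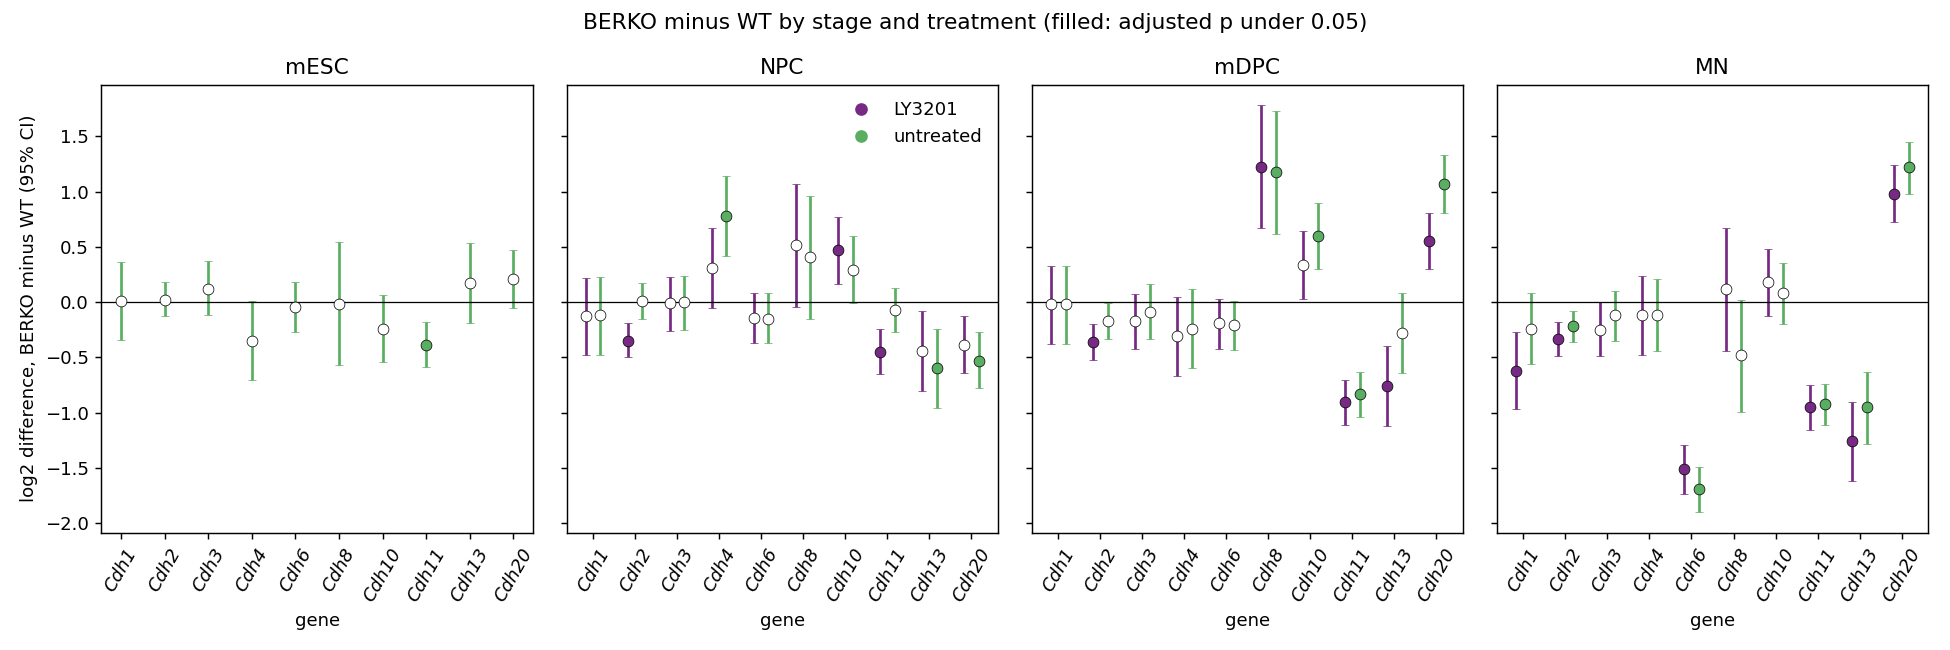
Log2 difference BERKO minus WT of each member at each stage, in LY3201-treated and in untreated arrays, with 95% intervals from limma; filled points passed the test. Cdh11 lies below 0 at mDPC and MN under both treatments, and Cdh20 lies below 0 at NPC and above 0 at mDPC and MN.

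Cdh20 turned its genotype difference between NPC and mDPC. At NPC it had 12.65 and 12.75 in untreated BERKO, against 13.16 and 13.29 in untreated WT, a difference of -0.53 ± 0.12 (adjusted p = 0.00543). At mDPC it was higher by 1.07 ± 0.12 in untreated BERKO (adjusted p = 3.29e-06), and at MN by 1.22 ± 0.11 (adjusted p = 1.23e-07). With LY3201 the differences were -0.39 (adjusted p = 0.0524) at NPC, 0.55 (adjusted p = 0.0033) at mDPC and 0.98 (adjusted p = 9.74e-06) at MN. Over both treatments, the BERKO arrays lay wholly below the WT arrays at NPC, at 12.63 to 12.84 against 13.07 to 13.29. They lay wholly above them at mDPC, at 13.63 to 13.97 against 12.76 to 13.22, and at MN, at 9.05 to 9.40 against 7.92 to 8.30. The untreated NPC call was lost without NPC WT array 2 (adjusted p = 0.0621) or NPC BERKO array 2 (adjusted p = 0.0628), and the treated mDPC call without its BERKO array 2 (adjusted p = 0.0515).

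Cdh11 was lower in BERKO at mDPC and at MN. It had 12.22 and 12.34 in BERKO mDPC with LY3201 and 12.27 and 12.30 in untreated BERKO mDPC, against 13.17 and 13.20 in WT with LY3201 and 13.11 and 13.13 in untreated WT. No BERKO array at mDPC overlapped a WT array. The difference was -0.90 ± 0.10 with LY3201 (adjusted p = 1.33e-06) and -0.83 ± 0.10 without (adjusted p = 3.99e-06). At MN it was -0.95 ± 0.10 with LY3201 (adjusted p = 7.22e-07) and -0.92 ± 0.09 without (adjusted p = 2.23e-07), 1.94-fold and 1.90-fold lower. At NPC it was -0.45 ± 0.10 with LY3201 (adjusted p = 0.00423) and -0.07 ± 0.10 without (adjusted p = 0.709). The treated NPC call was lost without NPC WT+LY3201 array 1 (adjusted p = 0.0682).

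Cdh6 differed between genotypes at MN. It had 7.14 and 7.22 in BERKO MN with LY3201 and 7.05, 7.10 and 7.23 in untreated BERKO MN, against 8.69 and 8.70 in WT with LY3201 and 8.65 and 8.99 in untreated WT. The BERKO arrays were just above background and all below the WT arrays. The difference was -1.51 ± 0.11 with LY3201 (2.86-fold, adjusted p = 5.17e-09) and -1.69 ± 0.10 without (3.23-fold, adjusted p = 2.11e-10). At mDPC it was -0.19 with LY3201 (adjusted p = 0.262) and -0.21 without (adjusted p = 0.235), with intervals of -0.42 to 0.03 and -0.43 to 0.01. At NPC it was -0.14 (adjusted p = 0.533) and -0.15 (adjusted p = 0.427) in the same order.

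Cdh13, the T-cadherin gene, lay lower in every BERKO array than in every WT array of the same stage at NPC and MN, and at mDPC as well. Its levels at MN were 8.78 and 8.84 in BERKO with LY3201 and 9.02 to 9.09 in untreated BERKO, against 9.69 and 10.45 in WT with LY3201 and 9.97 and 10.03 in untreated WT. The difference at MN was -1.26 ± 0.17 with LY3201 (adjusted p = 2.45e-05) and -0.95 ± 0.16 without (adjusted p = 0.000147). At mDPC it was -0.76 (adjusted p = 0.00382) with LY3201 and -0.28 (adjusted p = 0.347) without, and at NPC -0.44 (adjusted p = 0.127) and -0.60 (adjusted p = 0.0213). The untreated NPC call was lost whichever of its 4 arrays was left out (adjusted p = 0.0548 to 0.13), and the treated mDPC call without WT+LY3201 array 1 (adjusted p = 0.0594). With the 2 groups fitted alone the treated MN difference missed the threshold (adjusted p = 0.0649).

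Markers of mesenchyme and meninges were lower in BERKO at NPC and MN, and at MN Cdh6, Cdh11 and Cdh13 were lower too. At NPC 0 of 7 such markers were above background in BERKO and 3 of 7 in WT, and their summed log2 levels were 37.02 to 38.74 in BERKO and 51.91 to 52.44 in WT. There the Cdh6 and Cdh11 arrays of the genotypes overlapped, while the Cdh13 arrays did not. At MN 1 of 7 was above background in BERKO and 2 to 3 of 7 in WT, with sums of 31.69 to 33.66 and 45.95 to 51.02 in the same order. At mDPC 0 of 7 were above background in either genotype, with sums of 31.76 to 32.67 in BERKO and 33.38 to 34.20 in WT, and there Cdh11 differed by -0.90 with LY3201 and by -0.83 without. Ependymal markers at MN were above background for 4 of 4 genes in BERKO and 1 to 2 of 4 in WT, with sums of 31.59 to 34.10 and 24.55 to 26.45. Neuron markers summed to 52.62 to 54.66 in BERKO MN and to 55.97 to 70.43 in WT MN. At mDPC oligodendrocyte lineage markers summed to 46.40 to 48.06 in BERKO (2 to 3 of 6 above background) and to 41.36 to 42.29 in WT (2 of 6). Neuron markers at mDPC had a mean level per array of 7.35 to 7.43 in BERKO and 8.03 to 8.20 in WT, with 3 of 7 above background in each. Neither list overlapped between the genotypes at mDPC, where Cdh8, Cdh10, Cdh11 and Cdh20 differed. At NPC the oligodendrocyte lineage sums were 46.05 to 46.69 in BERKO and 42.35 to 43.29 in WT. The part of these cell types in the members' differences was not tested.

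Cdh2 differed little and downward. It was lower in BERKO by 0.35, 0.36 and 0.33 at NPC, mDPC and MN with LY3201 (adjusted p = 0.00396, 0.002 and 0.00367), at most 1.28-fold. Without treatment it differed by 0.01 at NPC (adjusted p = 0.952) and -0.17 at mDPC (adjusted p = 0.155), and at MN it was lower by 0.22 (adjusted p = 0.0267). After quantile normalization the differences with LY3201 at NPC, mDPC and MN missed the threshold (adjusted p = 0.0994, 0.0937 and 0.573), as did the untreated one at MN (adjusted p = 0.0834). The untreated MN call was also lost without MN WT array 1, MN WT array 2 or MN BERKO array 2 (adjusted p = 0.104 to 0.114), over all clusters (0.073) and with levels raised to background (0.0675). With the compared groups fitted alone none of these 4 calls held (adjusted p = 0.0702 at NPC, 0.0721 at mDPC and 0.135 at MN with LY3201, and 0.175 at MN without). The treated calls at NPC and MN were lost without BERKO+LY3201 array 1 of the stage (adjusted p = 0.0506 and 0.0535).

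Cdh4 was higher in untreated BERKO NPC, at 9.70 and 10.40, against 9.17 and 9.36 in untreated WT NPC, a difference of 0.78 ± 0.17 (adjusted p = 0.00336). With LY3201 it had 9.75 and 9.77 in BERKO, against 9.24 and 9.66 in WT, a difference of 0.31 ± 0.17 (adjusted p = 0.336). The untreated call rested on single arrays: without NPC BERKO array 2 the difference was 0.43 (adjusted p = 0.113) and without NPC WT array 1 it was 0.69 (adjusted p = 0.053). With the 2 groups fitted alone it also missed the threshold (adjusted p = 0.109).

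Cdh10 was higher in BERKO at mDPC, at 11.15 and 11.19 in untreated BERKO, against 10.53 and 10.62 in untreated WT, a difference of 0.60 ± 0.14 (adjusted p = 0.00703). Without mDPC WT array 2 it was 0.55 (adjusted p = 0.0648). With LY3201 Cdh10 had 11.01 and 11.16 in BERKO mDPC, against 10.75 and 10.75 in WT mDPC, a difference of 0.34 that missed the threshold (adjusted p = 0.135). At NPC it was 0.47 ± 0.14 with LY3201 (adjusted p = 0.0445) and 0.29 ± 0.14 without (adjusted p = 0.2). The treated NPC call was lost without either BERKO+LY3201 array (adjusted p = 0.126 and 0.234) and without WT+LY3201 array 2 (0.30, adjusted p = 0.369). It was also lost when arrays of the same title number, which the NPC WT+LY3201 group holds, were averaged (adjusted p = 0.153), with no filter (0.0581), over all clusters (0.0826) and with the 2 groups fitted alone (0.106). At MN the groups differed by 0.18 with LY3201 (adjusted p = 0.447) and by 0.08 without (adjusted p = 0.748).

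Cdh8, below background, had 4.92 and 5.05 in BERKO mDPC with LY3201 and 4.91 and 5.0 in untreated BERKO mDPC, against 3.73 and 3.78 in WT with LY3201 and 3.78 and 3.78 in untreated WT. The difference was 1.22 ± 0.26 with LY3201 (adjusted p = 0.0028) and 1.18 ± 0.26 without (adjusted p = 0.00419). The 4 BERKO arrays stood above the 4 WT arrays, but no array exceeded the negative controls' 95th percentile and no fold is given. Cdh1 at MN differed by -0.62 with LY3201 (adjusted p = 0.0134), below background. That value rested on WT+LY3201 array 2, at 4.63 against 3.81 in array 1, and was -0.21 without it (adjusted p = 0.342) and -1.03 without array 1. The call was also lost without either BERKO+LY3201 array (adjusted p = 0.0647 and 0.0643), with the 2 groups fitted alone (0.238) and with levels raised to background (0.661). In WT+LY3201 array 2 the markers of non-neural epithelium summed to 22.69, against 20.03 in array 1, with 0 of 5 above background in either, and their part was not tested.

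By counts, BERKO over WT in untreated cells gave 1 member higher and 2 lower at NPC, where 10.6% of all genes were higher and 5.08% lower. At mDPC 3 members were higher and 1 lower, against 8.51% and 5.32% of all genes. At MN 1 was higher and 4 lower, against 13.5% and 7.31%. With LY3201, 1 member was higher and 2 lower at NPC, against 4.56% and 5.81% of all genes. At mDPC 2 were higher and 3 lower, against 7.23% and 8.1%, and at MN 1 was higher and 5 lower, against 9.01% and 10.6%. At MN Cdh20 was thus the member that rose, with and without LY3201, beside falls of Cdh2, Cdh6, Cdh11 and Cdh13. The median difference of the 10 members at MN was -0.29 with LY3201 and -0.23 without, against -0.04 and 0.01 over all genes tested. It includes Cdh1, Cdh3, Cdh4 and Cdh8, which were below background in every MN array. Cdh1 was also among the 5 members lower at MN with LY3201. Cdh8, among the members higher at mDPC, was below background there as well.

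Over the arrays of both treatments, 3 members had every BERKO array above every WT array at NPC and 3 had every BERKO array below, where 11.6% and 9.77% of all genes did so. At mDPC there were 3 above and 5 below, against 12.3% and 10.5% of all genes. At MN there were 1 above and 5 below, against 11.3% and 8.77%. Some of these members were below background in every array of the stage. They were Cdh1 and Cdh8 at NPC, Cdh3, Cdh4 and Cdh8 at mDPC, and Cdh1 at MN. Cdh13 was below at all 3 stages, and Cdh11 and Cdh2 at mDPC and MN.

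LY3201 itself called no member in limma. In NPC 0 of 10 members were called in BERKO and 0 in WT, where 0% and 0.00453% of all genes were called. In mDPC 0 were called in either genotype, against 0.113% of all genes in BERKO and 0.0635% in WT. In MN 0 were called in either genotype, against 0.344% in BERKO and 1.83% in WT. At an unadjusted p under 0.05, 1 member in BERKO NPC, 1 in WT NPC, 2 in WT mDPC, 1 in BERKO MN and 2 in WT MN passed, and 0 in BERKO mDPC. Of all genes tested, 8.35% passed at this level in BERKO NPC, 9.99% in WT NPC, 8.42% in BERKO mDPC, 12.7% in WT mDPC, 11.3% in BERKO MN and 14.1% in WT MN, so counts of 1 or 2 of 10 members lie near the background. The smallest unadjusted p was that of Cdh2 in WT mDPC, which had 14.14 and 14.15 with LY3201, against 13.86 and 13.90 without, a difference of 0.27 with an interval of 0.11 to 0.42 (limma adjusted p = 0.179). Cdh2 in BERKO NPC had 14.49 and 14.53 with LY3201, against 14.68 and 14.78 without (-0.22, adjusted p = 0.416). Measured changes ran from -0.29 to 0.13 in BERKO NPC, from -0.23 to 0.28 in WT NPC, from -0.21 to 0.14 in BERKO mDPC and from -0.02 to 0.34 in WT mDPC. At MN they ran from -0.26 to 0.06 in BERKO and from -0.59 to 0.44 in WT, where the ends are Cdh8 and Cdh1, both below background.

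The effect of LY3201 in BERKO minus that in WT called 0 members at each stage, where 0.499% of all genes were called at NPC, 0% at mDPC and 0.63% at MN. At an unadjusted p under 0.05 there were 2, 1 and 0 members at these stages, where 12.9%, 8.36% and 14.1% of all genes passed at that level. The 2 at NPC were Cdh2 (-0.36, adjusted p = 0.121) and Cdh11 (-0.38, adjusted p = 0.219), and the 1 at mDPC was Cdh20 (-0.51, adjusted p = 0.458).

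**Figure D4:**
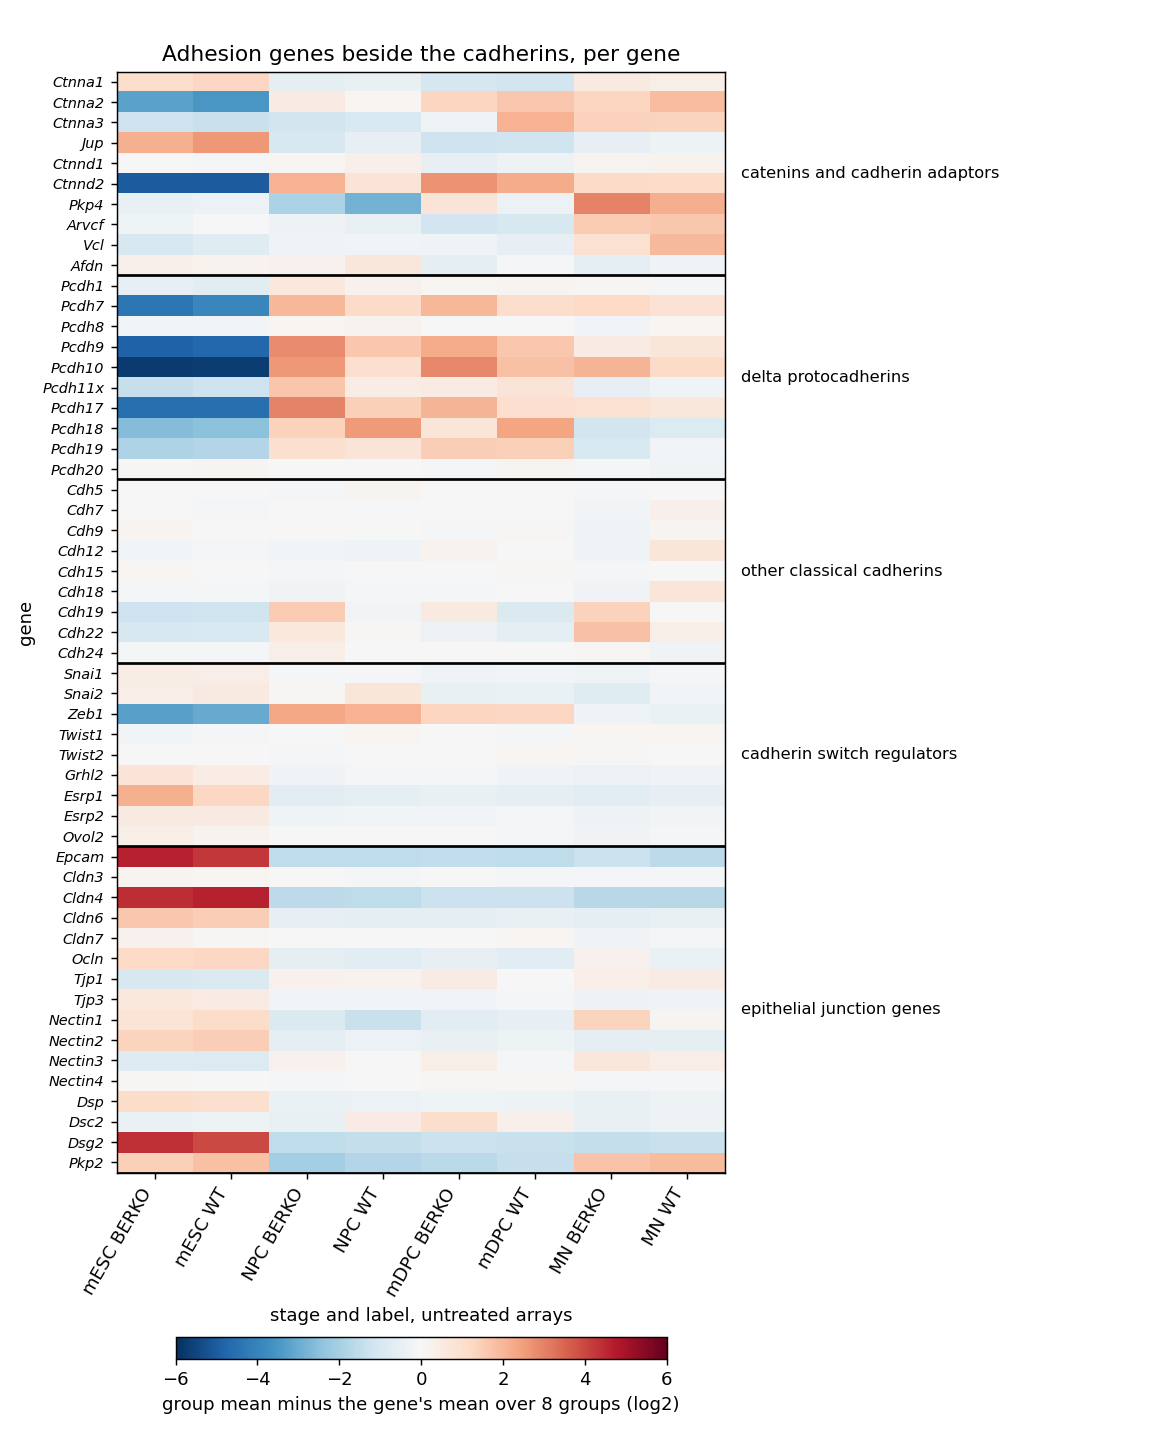
Group means of the listed adhesion genes in untreated arrays, each minus that gene's own mean over the 8 groups, in log2 units, with the genes in 5 lists. Epcam, Cldn4 and Dsg2 are highest at mESC, and Pcdh9, Pcdh10, Pcdh17, Ctnnd2 and Zeb1 are lowest there.

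The genes that work beside these cadherins were followed in 5 lists. Where 1 side of a step lay below background, the change is not a measured ratio. The shares of all genes called in each comparison are those given above for the members. Of the 17 epithelial junction genes, 16 had a cluster and 14 were tested. From mESC to NPC 11 of them fell and 2 rose in BERKO, and 10 fell and 3 rose in WT. Above background were 7 to 8 of the 16 in mESC arrays and 2 of the 16 in NPC arrays. Epcam, an epithelial adhesion protein also known from pluripotent cells, fell by 6.17 in BERKO and by 5.74 in WT. The claudin Cldn4 fell by 6.02 and 6.09 in the same order, and the desmosomal cadherin Dsg2 by 5.93 and 5.39. Tjp1, which encodes the scaffold ZO-1, rose by 1.20 in BERKO and by 1.06 in WT. From mDPC to MN the plakophilin Pkp2 rose by 3.34 in BERKO and by 3.29 in WT.

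Of 10 regulators of the cadherin switch, 8 were tested, and at the step to NPC 1 rose and 5 fell in each genotype. The 1 was Zeb1, a repressor of Cdh1 in epithelial cells, at a mean of 13.28 in BERKO NPC, against 7.74 in BERKO mESC, and 13.06 in WT NPC, against 7.97 in WT mESC. Its change was 5.54 in BERKO (adjusted p = 8.45e-20) and 5.09 in WT (adjusted p = 2.94e-19). Of the 9 regulators with a cluster, only Zeb1 exceeded background in any array. The values of the other genes, the 5 falls among them, are thus differences below background. Esrp1, a splicing factor of epithelial cells, fell by 2.77 in BERKO and by 1.83 in WT. From mDPC to MN Zeb1 fell by 1.55 in BERKO and by 1.63 in WT, while Cdh1 stayed below background. Between genotypes 2 of the 8 were higher in mESC BERKO, Esrp1 by 0.87 (adjusted p = 8.01e-07) and Grhl2 by 0.34 (adjusted p = 0.0343). With LY3201 Zeb1 was lower in BERKO mDPC by 0.40 (adjusted p = 0.00829) and Snai1 in BERKO MN by 0.45 (adjusted p = 0.00317), and no other gene of the list was called between genotypes at any stage.

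Of the catenins and adaptors, which tie cadherins to actin, 10 of 11 had a cluster and were tested. Into NPC 3 rose and 3 fell in BERKO, and 6 rose and 4 fell in WT. Ctnnd2, the neural delta-catenin, rose by 7.10 in BERKO and by 5.74 in WT, and Ctnna2, the neural alpha-catenin, by 3.72 and 3.59. Both had mESC means below background (5.97 and 5.51 in BERKO, 6 and 5.26 in WT). Jup, which encodes plakoglobin, fell by 3.10 in each, and Ctnna1, the widely expressed alpha-catenin, by 1.63 in BERKO and by 1.68 in WT. At the step to MN 7 rose and 1 fell in BERKO, and 6 rose and 2 fell in WT, with Arvcf higher by 2.63 and 2.56 and Pkp4 by 2.23 and 2.52. Vcl, which encodes vinculin, was lower in BERKO MN by 1.02 (adjusted p = 2.21e-06).

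Delta protocadherins, a related family of adhesion proteins of the brain, had 9 of 10 genes tested. Into NPC all 9 rose in each genotype, led by Pcdh10, with 8.34 in BERKO and 6.73 in WT. In mESC Pcdh10 averaged 4.05 in BERKO and 4.11 in WT, below background. Into MN 8 of them fell and 0 rose in BERKO, and 6 fell and 0 rose in WT. Between genotypes at NPC 6 were higher and 1 lower in untreated BERKO, where Pcdh10 and Pcdh17 each differed by 1.55 and Pcdh18 by -1.16. Of 9 other classical cadherins 5 were tested. Between untreated genotypes 3 were higher and 0 lower in BERKO at NPC, 1 and 0 at mDPC, and 3 and 2 at MN. Cdh19, with group means below background, was higher in BERKO by 1.71 at NPC, 1.43 at mDPC and 1.33 at MN. Cdh22 averaged 7.38 in BERKO MN and 5.98 in WT MN (1.40, adjusted p = 5.33e-09). The WT mean was below background, so 1.40 is not a measured ratio. No other gene of this list exceeded background in any array.

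Likeness of pattern was measured as Pearson's r of log2 level over the 14 group means, against 9984 other genes whose group means ranged over at least 1. The groups share 4 stages and 2 lines, so r describes these groups and has no p. For Cdh1 the 3 most alike were Epha2, Zscan10 and Sall4 (r of 0.999 to 1), for Cdh2 Wls, Bmpr2 and Dpysl2 (0.996 to 0.997), and for Cdh3 Ddx27, Pou5f1 and Ddx55 (0.998). For Cdh20 they were Fut9, Stradb and Ttyh3 (0.994 to 0.995), and for Cdh10 Npc1, Gpt2 and Ttyh3 (0.993 to 0.995). Kcnmb4 was most like Cdh4 (0.989), Lrrn1 most like Cdh11 (0.992) and Ip6k2 most like Cdh13 (0.994). Arhgap42 was most like Cdh6 (0.982) and Edil3 most like Cdh8 (0.964). Among members, Cdh1 and Cdh3 had an r of 0.996, Cdh1 and Cdh2 of -0.989, and Cdh2 and Cdh13 of 0.978.

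Within untreated arrays, the order of the stages was the same in both genotypes for Cdh2 (NPC, MN, mDPC, mESC). The same held for Cdh4, Cdh10 and Cdh13 (NPC, mDPC, MN, mESC). For these 4 members neighbouring stages did not overlap, except mDPC and MN for Cdh13 in WT. Cdh4 was above background only at NPC, so its ranks after NPC order levels below background. Cdh20 was highest at mDPC in BERKO and at NPC in WT, and Cdh11 was highest at mDPC in WT, while its BERKO arrays overlapped between NPC and mDPC. Cdh6 was second at mDPC in BERKO and at MN in WT, with no overlap between neighbouring stages.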

How the data were processed

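RNA of 29 samples was hybridised to Clariom D (MTA 1.0) arrays, with 150 ng labelled per sample. The deposited values are log2 signals that the authors made with SST-RMA in Affymetrix Expression Console 1.4, per the labels; RMA and the Transcriptome Analysis Console are named without versions. RMA equalises the arrays' distributions, so a shift common to most genes would not show. The build behind the array's clusters is not given in the sources used here. The cluster with the highest mean stood for a gene; each member had 1 cluster. Replicate arrays correlated at 0.9953 to 0.9984, and none were identical. limma 3.58.1 in R 4.3.3 fitted a mean per group to all arrays (15 residual and 3.303 prior degrees of freedom), with 25 comparisons, 2-sided, and Benjamini-Hochberg adjustment over 22063 genes, called at 0.05. Groups of 2 or 3 arrays limit the precision. The members and lists were chosen with earlier results of these data known. All members are named, and of each list up to 3 called genes per direction with the largest change, from which the text takes some. The fit was tested on simulated data. Alternatives were the filter, quantile normalization, the prior, all clusters, averaged same-number arrays, a floor at the negative controls, compared groups alone and each array left out.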

Additional observations from a re-analysis of the deposited data

Results flagged for a closer look

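In 7 cases a member's step between stages differed between the BERKO and WT arrays by limma's test of the difference itself (BERKO step minus WT step, untreated arrays). At the step from mESC to NPC these were Cdh4 (1.13) and Cdh20 (-0.74), whose mESC levels were below background in both genotypes. At the step from NPC to mDPC they were Cdh4 (-1.02), Cdh11 (-0.76) and Cdh20 (1.59). At the step from mDPC to MN they were Cdh6 (-1.48) and Cdh8 (-1.66), the last below background and dependent in size on MN WT array 2. Steps into and out of NPC both use the NPC arrays, so the values of Cdh4 and of Cdh20 there are not independent of each other.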

How the results depend on the processing

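Of 76 member differences that passed the test, 49 kept their call and direction under every alternative tried and 27 lost the call under at least 1. The steps of Cdh1 and Cdh2 to NPC, of Cdh10, Cdh11 and Cdh20 to MN, and the genotype differences of Cdh6 and Cdh11 at MN were among those kept. Counts of members called are given next, with the count as reported in brackets. For untreated mESC genotypes (1) the count was 0 after quantile normalization, over all clusters, with same-number arrays averaged, with the floor at the negative controls and with the compared groups alone, and 0 to 1 with an array left out. Leaving out an array gave 0 to 2 for untreated NPC genotypes (3), 1 to 2 for treated NPC genotypes (3), 4 to 7 for the WT step to mDPC (7), and 0 to 1 both for LY3201 in WT MN (0) and for its difference between genotypes at MN (0). In the last 2 the members were Cdh8, without MN WT array 1, and Cdh1, without MN WT+LY3201 array 1. The compared groups alone gave 3 for treated MN genotypes (6) and 1 for the difference of steps to MN (2). The floor gave 9 for the WT step to MN (5), where it called 88% of all genes, 4 for LY3201 in WT NPC (0), where it called 66.8%, and 1 for the difference of steps to NPC (2), where it called 5.61%. The floor replaces levels below background by each array's negative-control percentile, so by construction such differences are those of the percentiles. It turned the direction of 6 values that were called with or without the floor. Among them were Cdh8 between untreated mDPC genotypes (-0.10) and treated ones (-0.06), and Cdh1 and Cdh8 at the WT step to MN (-0.40 each). The rest were Cdh8 at the BERKO step to NPC (-0.16) and Cdh3 for LY3201 in WT NPC (-0.25). Another 32 values, called neither with nor without the floor, also changed direction. No paired analysis was possible because no 2 compared groups share more than 1 title number, that being 10 in the LY3201-treated BERKO and WT groups at MN. Signal over background limits Cdh3 and Cdh8 everywhere, Cdh1 after mESC and Cdh4 outside NPC.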
